A study of Homo sapiens with 6 samples.

Results

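Cells that divide must copy their chromosomes in S phase, pass through G2 and then share the copies out in mitosis. Entry into mitosis is driven by CDK1 with cyclins A and B, and the machinery that follows comprises the Polo and Aurora kinases, the kinetochores that hold chromosomes to the spindle, the spindle checkpoint, the anaphase-promoting complex, the motor proteins and the condensins. Genes for this machinery are known to be transcribed together late in the cycle, with FOXM1 and the MYBL2 (B-MYB) complex as activators and the DREAM complex, which holds the pocket proteins, as repressor in resting cells. Many of their promoters carry a short element called CHR and CCAAT boxes bound by NF-Y.

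The mitosis and G2/M genes described here are 48 genes, chosen by name for their known roles, among the 31348 genes of the table. All 48 were found and all 48 passed the filter used for testing (a mean FPKM of at least 0.5 over the 6 libraries), which 13317 genes passed. FPKM is a read count scaled by transcript length and library size. TPC1 cells, an established human papillary thyroid carcinoma line, had been transfected with siControl (3 libraries) or with siSRPX2-1, an siRNA against SRPX2 (3 libraries), and the replicates of each are numbered 1, 2 and 3. The labels give wild type for the siControl cells and SRPX2 knockdown for the others. For all 6 libraries they also give day 2 and a treatment named adipogenic differentiation, and the study's methods do not describe that treatment. The methods time the RNA isolation in hours after transfection and not by day. Each siRNA was thus measured in 1 cell line and with 1 siRNA sequence, and whatever SRPX2 product remained after transfection was still present. SRPX2 itself was counted 243, 335 and 308 times after siControl and 140, 157 and 263 times after siSRPX2-1. It lay under the FPKM filter, and without the filter its log2 change was -0.71 (SE 0.328, edgeR adjusted p = 0.999997), and it was -0.76 with the replicate number as a block (SE 0.241, edgeR adjusted p = 0.835).

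The libraries held 63824315 to 75828542 counted reads. Thyroid PAX8 had a mean of 91.1 FPKM, and thyroglobulin (TG) had 0.137 FPKM. Of the epithelial markers KRT8 and KRT18 had 56.0 and 71.0 FPKM, and EPCAM and CDH1 had 0.0724 and 0.0130 FPKM. Both replicate 2 libraries stood apart from the other 4 in most of what follows. Their mitochondrial share of reads was 3.70 to 3.91% against 4.37 to 4.94% in the others, and FN1 (fibronectin) took 2.37 and 3.48% of their reads against 3.96 to 5.65%. The summed FPKM of the thyroid markers was 87.3 to 91.7 in the replicate 2 libraries and 102 to 117 in the others, and that of the 7 epithelial markers 162 to 208 against 96.4 to 114. KRT8 and KRT18 made up most of that sum, and KRT7 was lower in replicate 2 (2.63 and 3.24 FPKM against 6.21 to 7.09 FPKM). The 4 listed immune markers of 7 summed to 5.27 to 9.36 FPKM in replicate 2 and 8.94 to 14.2 FPKM elsewhere, with PTPRC near 0, and 6 listed fibroblast and endothelial markers of 9 summed to at most 1.59 FPKM, with COL3A1, PDGFRA and VWF near 0. Whether any of these differences had a part in the results on the mitosis genes was not tested. No source used here says what a replicate number marks beyond a biological repeat, so what sets number 2 apart cannot be told from the labels.

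The promoter letters are shown first, and the 48 genes were chosen by role and not by sequence. Many promoters of genes with these roles are already known to carry both elements, so a high share was likely beforehand. Promoter windows of 300 bases (250 before and 50 after the transcription start) came from RefSeq on GRCh38.p14, where 40 of the 48 genes had an entry. The CHR motif was searched as TTTGAA or TTCGAA and the CCAAT motif as CCAAT, both on both strands, so that CHR on the minus strand reads TTCAAA and CCAAT on the minus strand reads ATTGG. CHR was found in 31 of the 40 genes (77.5%), against 19.5% of the 27305 genes in the promoter table and 15.1% of those that were tested here. CCAAT was found in 32 genes (80.0%), against 39.7% of all genes. Both motifs stood in 26 genes (65.0%), against 7.85% of all genes. A match is a run of letters and says nothing about binding.

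Windows of 30 bases around a CHR match (12 bases on each side, the gene's own strand, motif in capitals) are given for the leading genes of each role that had one, to show the letters beside the element and how far from the start it lies. The elements themselves are alike because they were searched for. The number after the coordinates is the position of the first motif base, counted from the transcription start, with negative numbers upstream. The match shown is the closest to the start that had 12 bases of promoter window on each side. Only that match is in capitals, and further matches in the flanks, as in NDC80 and ANLN, are left in lower case.
CDK1, chr10:60778475-60778504, plus strand, 10: ctcgcacttggcTTCAAAgctggctcttgg
PLK1, chr16:23678848-23678877, plus strand, -29: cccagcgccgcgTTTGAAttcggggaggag
BUB1, chr2:110678045-110678074, minus strand, 2: ctgcgcggggtaTTCGAAtcggcggcggct
MAD2L1, chr4:120066807-120066836, minus strand, 25: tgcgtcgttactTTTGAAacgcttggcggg
CDC20, chr1:43358904-43358933, plus strand, -65: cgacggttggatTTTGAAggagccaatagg
CENPA, chr2:26786026-26786055, plus strand, -18: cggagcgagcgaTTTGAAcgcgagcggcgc
NDC80, chr18:2571542-2571571, plus strand, -3: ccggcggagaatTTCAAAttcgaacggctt
KIF11, chr10:92593090-92593119, plus strand, -28: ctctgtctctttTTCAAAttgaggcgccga
ASPM, chr1:197146765-197146794, minus strand, -113: cggatgcaatcaTTCAAAtgaagcgccgcc
PRC1, chr15:90994538-90994567, minus strand, -20: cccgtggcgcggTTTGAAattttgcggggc
ANLN, chr7:36389830-36389859, plus strand, -20: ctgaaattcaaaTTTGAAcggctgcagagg
TOP2A, chr17:40418030-40418059, minus strand, -151: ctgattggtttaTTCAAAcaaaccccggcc
NCAPG, chr4:17810932-17810961, plus strand, -35: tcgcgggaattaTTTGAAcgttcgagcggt
MKI67, chr10:128126435-128126464, minus strand, -29: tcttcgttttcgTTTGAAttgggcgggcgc
In 30 genes a match could be shown in this way, as TTTGAA in 22, TTCAAA in 6 and the palindrome TTCGAA in 2. For ECT2 a closer match, at 35, lay too near the end of the window. Over all windows of the members there were 47 CHR matches, with a median first base at -29, and 32 of them lay within 50 bases of the start. The 81 CCAAT matches had a median of -87, and 49 of them began between 110 and 40 bases upstream.

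**Figure D1:**
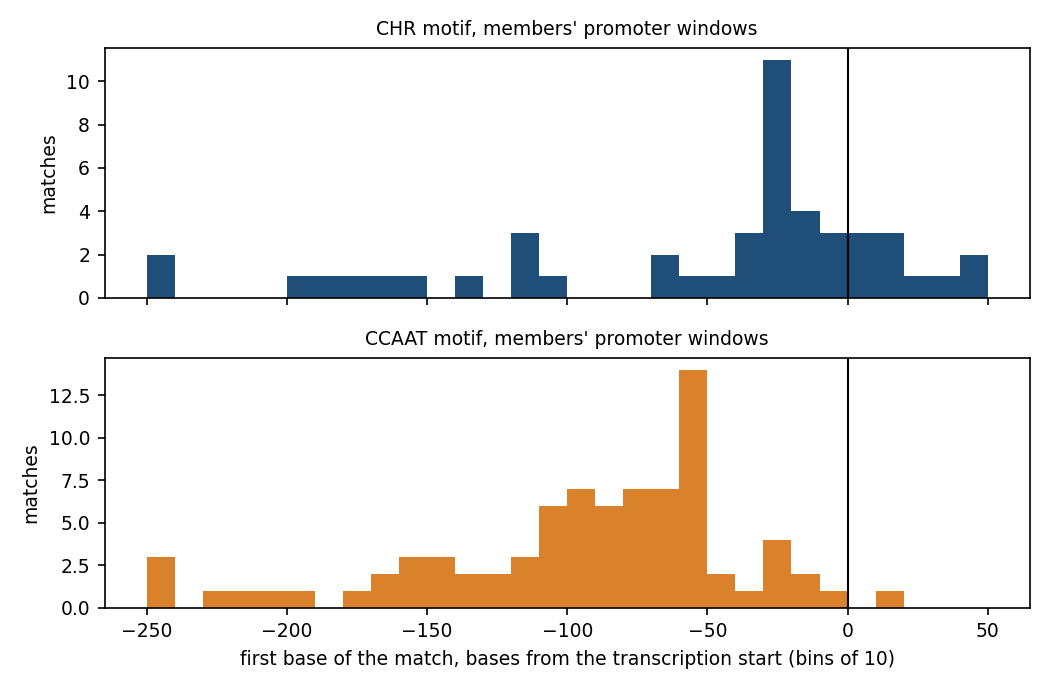
Number of CHR matches (upper panel) and CCAAT matches (lower panel) in the promoter windows of the 40 members with an entry, against the distance in bases of the first matched base from the transcription start, in bins of 10. The CHR matches gather just before the start (median -29) and the CCAAT matches further upstream (median -87).

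The arrangement of both motifs is best seen in 120 bases directly upstream of the start. Stretches of this kind are printed, with CHR and CCAAT matches in capitals, for the proliferation marker MKI67, the anaphase activator CDC20 and the spindle protein gene CKAP2, which had neither motif. CKAP2 was picked for printing because of its small change of replicate 2 against replicate 1.
MKI67, chr10:128126424-128126543, minus strand: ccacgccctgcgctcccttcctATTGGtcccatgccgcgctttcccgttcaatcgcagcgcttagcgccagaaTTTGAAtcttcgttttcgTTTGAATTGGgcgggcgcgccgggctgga
CDC20, chr1:43358861-43358980, plus strand: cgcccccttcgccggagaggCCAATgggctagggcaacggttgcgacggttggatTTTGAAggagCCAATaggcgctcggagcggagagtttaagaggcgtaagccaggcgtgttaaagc
CKAP2, chr13:52455868-52455987, plus strand: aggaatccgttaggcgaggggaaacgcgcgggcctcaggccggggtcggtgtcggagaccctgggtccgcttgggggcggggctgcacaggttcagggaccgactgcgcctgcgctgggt
In MKI67 there were 2 CHR matches, at -47 and -29, and the second shares its last base with an ATTGG. In CDC20 the CHR match at -65 lies between CCAAT boxes. Among other lists, CHR was found in 30 of 42 other mitosis genes with an entry (71.4%), in 3 of 28 genes of DNA replication and the G1/S transition (10.7%) and in 7 of 21 regulators of mitotic transcription (33.3%), while CCAAT was found in 69.0%, 60.7% and 52.4% of them.

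Every library expressed all 48 genes, with 414 to 72855 reads per gene and library. On the FPKM scale, which allows levels of different genes to be set side by side, the mean over the 6 libraries ran from 2.47 for CDC25C, a phosphatase that activates CDK1, to 156 for CKS2, a small subunit that binds CDK1. The median of the 48 means was 18.6 FPKM. Next to CKS2 stood CDC20 (68.4 FPKM), CCNB1 (60.6 FPKM), TPX2 (55.1 FPKM) and TOP2A (48.4 FPKM).

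The comparison between replicate numbers asked whether libraries of the same siRNA differed in these genes. They did, and in 1 direction. Together the 48 genes took 0.369, 0.940 and 0.378% of the reads in siControl replicates 1, 2 and 3, and 0.338, 0.812 and 0.429% in siSRPX2-1 replicates 1, 2 and 3. Both replicate 2 libraries were therefore far above the other 4, whichever siRNA they had received. A higher share of cells in G2 and mitosis and more of these transcripts per cell cannot be told apart in bulk RNA. In siControl the replicate 2 level was 2.56 times the mean of replicates 1 and 3 in the median gene (range 1.19 to 3.59), and in siSRPX2-1 it was 2.16 times (range 1.04 to 2.80).

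**Figure D2:**
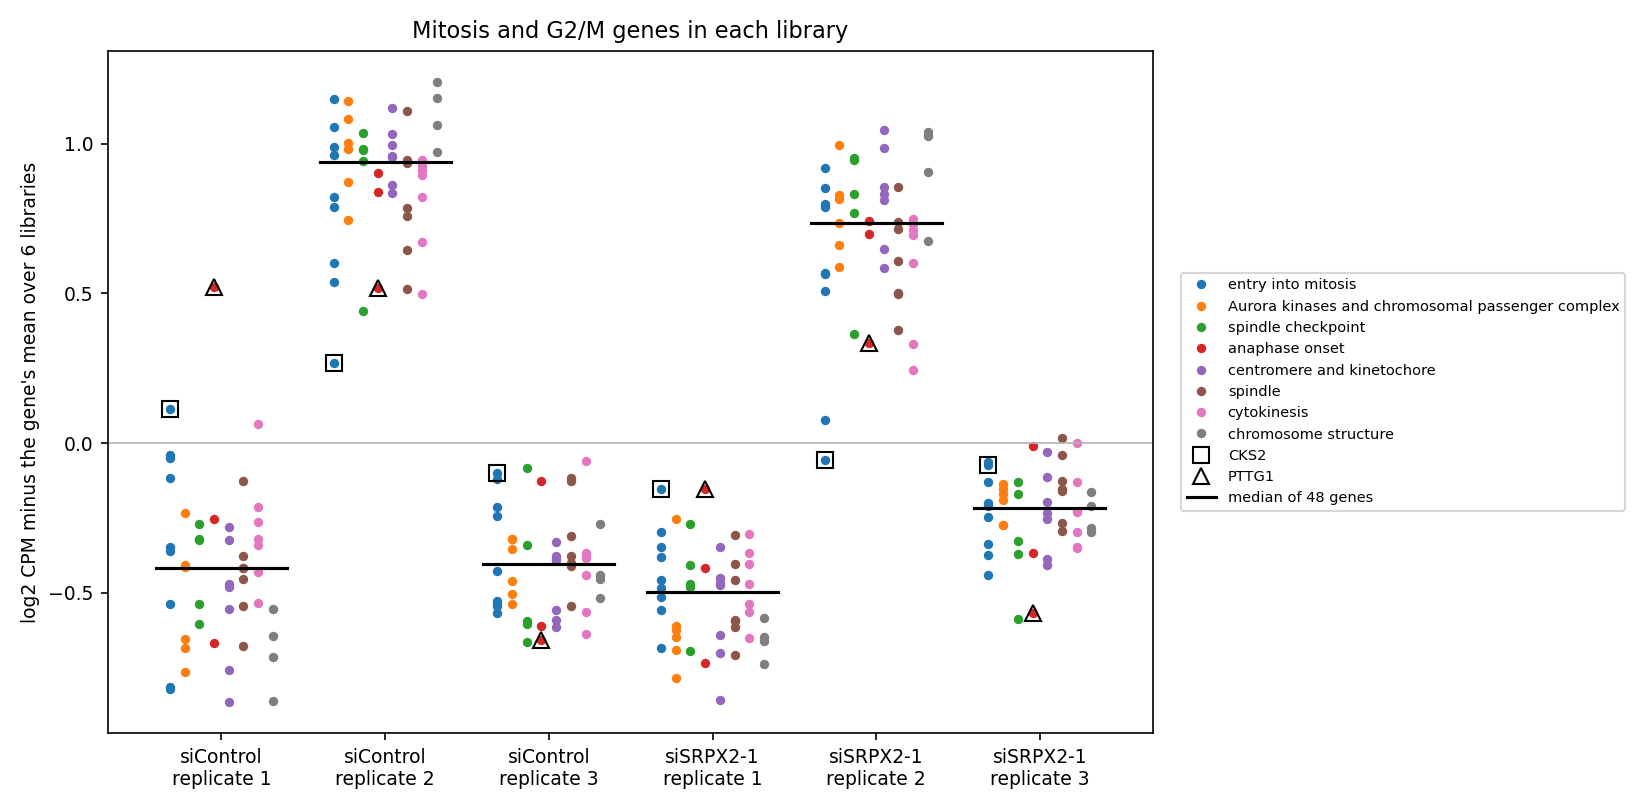
Level of each of the 48 genes in each library, as log2 CPM minus that gene's mean over the 6 libraries, coloured by role. Each point is 1 gene, the black bars are medians over the 48 genes, and the open square and triangle mark CKS2 and PTTG1. Both replicate 2 libraries lie above the other 4 for 46 of the 48 genes, and not for CKS2 and PTTG1.

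In a model with the siRNA and the replicate number (edgeR's quasi-likelihood test, Benjamini-Hochberg adjustment over all 13317 genes, called at an adjusted p under 0.05), 47 of the 48 genes differed between replicate numbers, against 55.2% of all genes tested. CKS2 was the exception (adjusted p = 0.218). Replicate 2 was higher than replicate 1 in 46 of 48 genes, where 21.8% of all genes were called higher, and the median log2 change was 1.29 (all genes -0.01). Replicate 2 was higher than replicate 3 in 47 of 48 genes, where 24.1% of all genes were called higher, with a median of 1.13 (all genes -0.01). None of the 48 was called lower in either comparison. In 46 of 48 genes both replicate 2 libraries lay above all 4 others, as they did in 27.6% of all genes. These 2 comparisons share the replicate 2 libraries and are not independent of each other.

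**Figure D3:**
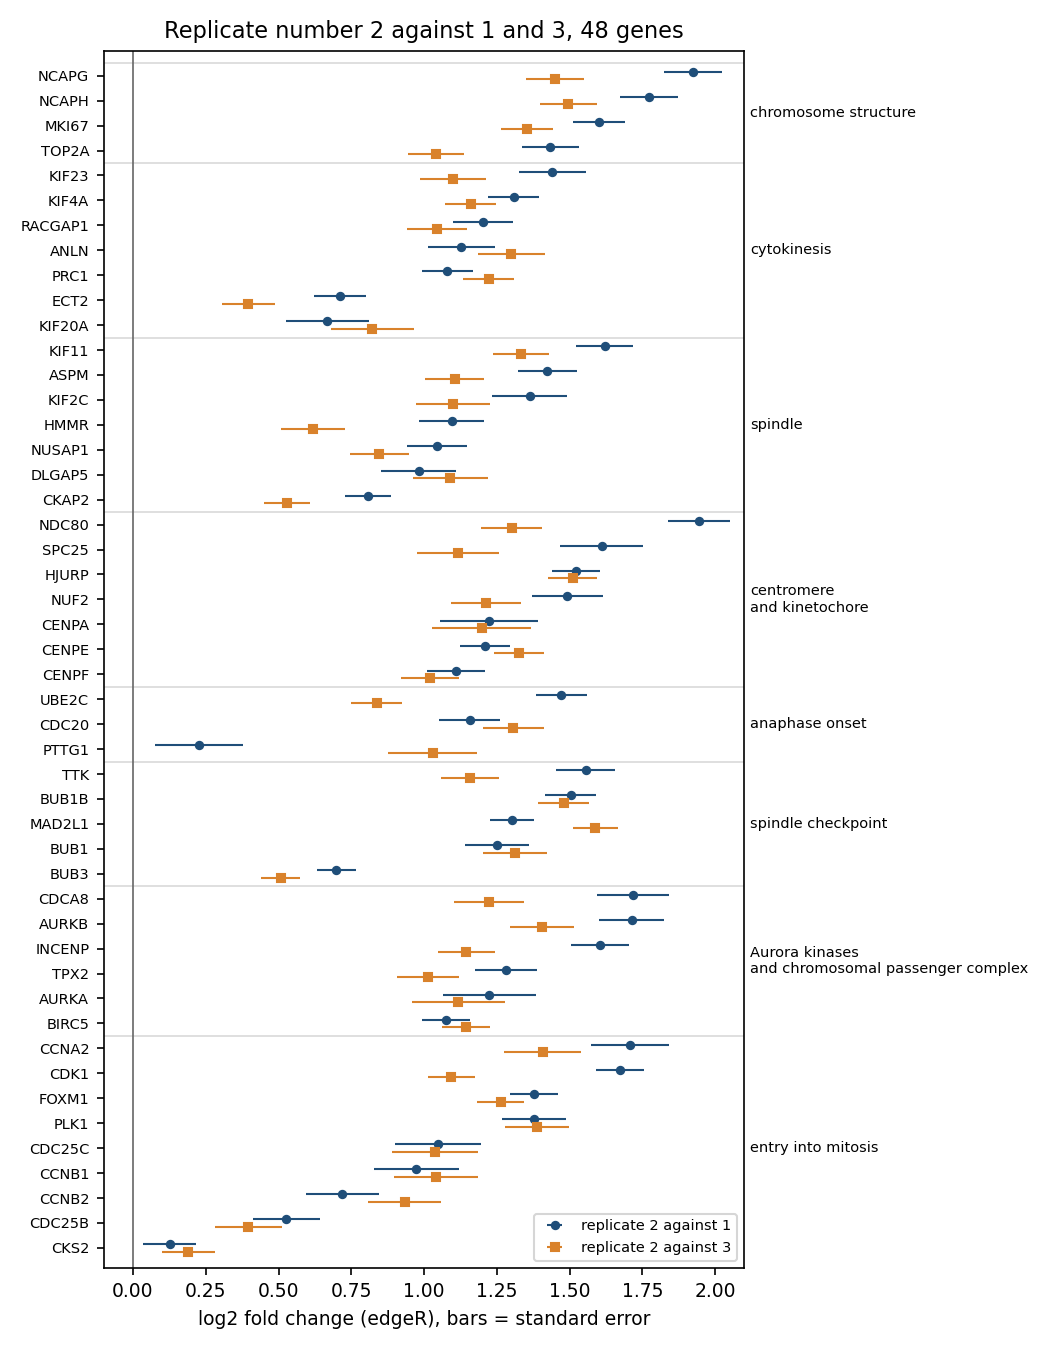
log2 fold change (x axis) of replicate number 2 against 1 (circles) and against 3 (squares) for each of the 48 genes, grouped by role, with bars of 1 standard error from edgeR. NDC80 (1.94) and NCAPG (1.92) show the largest change against replicate 1, and MAD2L1 (1.59) against replicate 3, while CKS2 stays near 0 in both (0.13 and 0.19).

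Among the genes of entry into mitosis 8 of 9 were higher in replicate 2 in both comparisons, with median log2 changes of 1.05 and 1.04. The values that follow are CPM, counts scaled to library size (with TMM factors), and are listed for replicates 1, 2 and 3. CDK1, the kinase that starts mitosis (chromosome 10, 60778331 to 60794852), had 47.3, 165 and 71.8 CPM after siControl and 51.7, 150.3 and 76.1 CPM after siSRPX2-1. Replicate 3 lay between the other numbers, and its CDK1 level was also above replicate 1 (log2 change 0.58, SE 0.0820, edgeR adjusted p = 0.00395). CCNB1, the main mitotic cyclin, had 141, 265 and 105 CPM after siControl and 109.6, 227 and 133 CPM after siSRPX2-1, a smaller step for replicate 2 (log2 change 0.97 against replicate 1, SE 0.145). PLK1, the Polo kinase, had 71.2, 188 and 61.2 CPM and 61.5, 157 and 69.9 CPM, in the same order of siRNAs. Its change against replicate 1 (1.38) and against replicate 3 (1.39) was nearly equal. FOXM1, a transcription factor for this set of genes, had 64.2, 181 and 69.4 CPM after siControl and 67.8, 162 and 73.7 CPM after siSRPX2-1, and no replicate 2 value overlapped the others. CDC25B, a phosphatase that activates CDK1 at the centrosome, had 81.1, 122 and 77.2 CPM and 64.5, 88.6 and 80.4 CPM, and its step was small (log2 change 0.53 against replicate 1, SE 0.114, edgeR adjusted p = 0.00635). CDC25C, the related phosphatase, had 6.71, 15.2 and 7.27 CPM after siControl and 6.76, 12.7 and 6.34 CPM after siSRPX2-1. Thus the least expressed gene of the 48 still moved by 1.05 on the log2 scale. CKS2, the most abundant on the FPKM scale, had 116, 129 and 99.98 CPM after siControl and 96.4, 103 and 102 CPM after siSRPX2-1. Its 3 numbers overlapped, and neither change passed the test (0.13 with SE 0.0909 and 0.19 with SE 0.0911). The remaining members of this role, CCNA2 and CCNB2, were higher by 1.71 and 0.72 on the log2 scale against replicate 1.

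All 6 genes of the Aurora kinases and the chromosomal passenger complex were higher in replicate 2 in both comparisons (medians 1.44 and 1.15 on the log2 scale). AURKA, the kinase of the spindle poles, had 64.6, 149.98 and 53.5 CPM after siControl and 48.4, 114 and 66.5 CPM after siSRPX2-1. TPX2, which activates AURKA on the spindle, had 153, 372 and 159 CPM after siControl and 132, 321 and 182 CPM after siSRPX2-1. Both genes had their highest values in the replicate 2 libraries, and the lowest value was in replicate 1 after siSRPX2-1 for both. AURKB, the kinase of the passenger complex (chromosome 17, 8204733 to 8210600), had 19.1, 63.7 and 21.8 CPM and 18.6, 60.0 and 24.8 CPM, a log2 change of 1.71 (SE 0.111) against replicate 1. BIRC5 (survivin), a subunit of that complex, had 54.6, 122 and 50.2 CPM and 61.1, 121 and 60.2 CPM. Its siControl and siSRPX2-1 values in replicate 2 were almost the same. CDCA8 (borealin) and INCENP, the complex's other subunits, were higher by 1.72 and 1.60 against replicate 1.

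The spindle checkpoint holds back anaphase until every kinetochore is attached, and all 5 of its genes were higher in replicate 2 (medians 1.30 and 1.31). BUB1, a checkpoint kinase (chromosome 2, 110637528 to 110678063), had 74.5, 179 and 61.5 CPM after siControl and 67.2, 158 and 74.1 CPM after siSRPX2-1. BUB1B (BUBR1), part of the inhibitor of the anaphase-promoting complex, had 51.1, 152 and 48.7 CPM and 53.1, 143 and 57.3 CPM. TTK (MPS1), the kinase that starts the checkpoint signal, had 29.02, 86.9 and 34.8 CPM and 27.3, 78.5 and 39.2 CPM. In these 3 genes both replicate 2 values stood far above all others. MAD2L1 (MAD2), which binds CDC20, had 61.5, 146 and 46.8 CPM after siControl and 55.9, 143 and 49.3 CPM after siSRPX2-1. It had the smallest p of all 48 genes for the replicate number, and its replicate 3 values were below those of replicate 1 (log2 change -0.29, SE 0.0752, edgeR adjusted p = 0.0378). BUB3, which also acts outside mitosis, was higher by 0.70 against replicate 1 and 0.51 against replicate 3, the smallest changes of the role.

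Of the 3 genes of anaphase onset, CDC20, the activator of the anaphase-promoting complex, had 117, 260.1 and 91.2 CPM after siControl and 104, 233 and 108 CPM after siSRPX2-1. UBE2C, the ubiquitin-conjugating enzyme of that complex, had 31.3, 89.1 and 45.6 CPM and 29.9, 80.7 and 49.4 CPM, and its replicate 3 values lay clearly above replicate 1 (log2 change 0.63, SE 0.0874, edgeR adjusted p = 0.00356). PTTG1 (securin), which keeps separase inactive until anaphase, went another way. Its values were 85.9, 85.6 and 37.9 CPM after siControl and 53.7, 75.5 and 40.3 CPM after siSRPX2-1, so that siControl replicate 1 was as high as siControl replicate 2 and both replicate 3 libraries were low. PTTG1 was called higher in replicate 2 than in replicate 3 (1.03, SE 0.154, edgeR adjusted p = 9.07e-04) but not than in replicate 1 (0.23, SE 0.152, edgeR adjusted p = 0.257).

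All 7 centromere and kinetochore genes were higher in replicate 2 (medians 1.49 and 1.21). CENPA, the histone H3 variant that marks centromeres, had 15.5, 41.7 and 14.3 CPM after siControl and 16.9, 33.7 and 18.8 CPM after siSRPX2-1. It overlaps SLC35F6 on the same strand, a gene with 205% of its reads, so the counts of CENPA are uncertain. HJURP, the chaperone that loads CENPA, had 46.9, 141 and 44.9 CPM and 49.7, 136 and 52.6 CPM, with nearly equal changes against replicate 1 (1.52) and replicate 3 (1.51). CENPF, a large protein of the outer kinetochore, had 246, 549 and 235 CPM after siControl and 222, 462 and 262 CPM after siSRPX2-1. NDC80, which grips the microtubule end (chromosome 18, 2571557 to 2616635), had 18.6, 73.7 and 27.0 CPM and 18.7, 70.1 and 31.4 CPM. With 1.94 (SE 0.107, edgeR adjusted p = 2.00e-05) its change against replicate 1 was the largest of the 48 genes, and its replicate 3 level was above replicate 1 as well (0.64). NUF2 and SPC25, subunits of the same NDC80 complex, were higher by 1.49 and 1.61, and the motor CENPE by 1.21, against replicate 1.

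All 7 spindle genes were higher in replicate 2 (medians 1.10 and 1.09). KIF11 (Eg5), the motor that pushes the spindle poles apart (chromosome 10, 92593130 to 92655395), had 73.7, 255 and 89.3 CPM after siControl and 78.3, 213 and 96.2 CPM after siSRPX2-1. ASPM, a spindle pole protein, had 112, 314 and 126 CPM and 107, 273 and 147 CPM. In both genes the replicate 2 levels were the highest, and those of replicate 3 were slightly above replicate 1. The others ranged from 0.81 (CKAP2) to 1.36 (KIF2C, a motor that takes microtubules apart) against replicate 1, with NUSAP1, HMMR and DLGAP5 in between. CKAP2, whose promoter stretch above had neither motif, was at the low end of the role in both comparisons (0.53 against replicate 3). Its stretch was picked for a small change against replicate 1, so this place says nothing about the motifs. CKS2, picked by the same rule, had both motifs and a smaller change (0.13 against replicate 1). KIF2C, which like CKAP2 had neither motif, changed by 1.36 and 1.10.

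The 7 genes of cytokinesis, which splits the cell, were all higher in replicate 2 (medians 1.13 and 1.10). PRC1, the bundler of the central spindle, had 81.4, 179.8 and 68.8 CPM after siControl and 82.5, 166 and 79.9 CPM after siSRPX2-1. It overlaps AC068831 on the same strand, a gene with 43.9% of its reads, so the counts of PRC1 are uncertain. ANLN (anillin), a scaffold of the contractile ring, had 225, 512 and 173 CPM and 209, 436 and 211 CPM. In siControl both had their lowest value in replicate 3. KIF20A, a motor of the central spindle, had 116, 176 and 81.4 CPM after siControl and 83.6, 139 and 94.6 CPM after siSRPX2-1. ECT2, the exchange factor that activates RhoA at the cell equator, had 223, 365 and 248 CPM and 186, 306 and 259 CPM. These last 2 genes had the smallest changes of the role against replicate 1 (0.67 and 0.71). RACGAP1, the partner of ECT2, had 69.2, 163 and 68.0 CPM after siControl and 59.4, 133 and 74.7 CPM after siSRPX2-1. KIF4A and KIF23 were higher by 1.31 and 1.44 against replicate 1.

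The 4 genes of chromosome structure had the highest medians of the 8 roles (1.69 and 1.40). TOP2A, the topoisomerase that untangles sister chromatids, had 212, 608 and 258 CPM after siControl and 196, 495 and 277 CPM after siSRPX2-1. NCAPG and NCAPH are subunits of condensin I. NCAPG (chromosome 4, 17810979 to 17844865) had 45.1, 189 and 60.3 CPM after siControl and 49.1, 168 and 70.8 CPM after siSRPX2-1, a log2 change of 1.92 (SE 0.1002) against replicate 1. NCAPH had 27.4, 99.98 and 31.4 CPM and 28.7, 91.5 and 36.6 CPM, again with both replicate 2 libraries apart from the rest. MKI67 (Ki-67), which coats mitotic chromosomes and is the usual stain for proliferating cells, had 295, 964 and 337 CPM after siControl and 308, 865 and 379 CPM after siSRPX2-1. In these counts the marker's replicate 2 levels were more than 2 times those of any other library.

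Replicates 1 and 3 differed less. Replicate 3 was higher than replicate 1 in 11 of 48 genes, where 7.3% of all genes were called higher, and lower in 2 of 48 (PTTG1, -0.80, and MAD2L1, -0.29), where 8.81% were called lower. The median log2 change of the 48 was 0.17 (all genes 0.00). The 11 included CDK1, NDC80, UBE2C, TTK, TOP2A and NCAPG. The 13 calls in either direction became 0 without the FPKM filter and 4 with limma, and leaving out 1 library at a time gave between 5 (without siControl replicate 1) and 20 (without siControl replicate 2).

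The other lists place these changes. All 51 other mitosis genes were higher in replicate 2 in both comparisons (medians 1.38 and 1.24), with the smallest p for ZWINT, PBK and SKA1. Of 33 genes of DNA replication and the G1/S transition 32 were higher against replicate 1 and 33 against replicate 3 (medians 1.38 and 1.29), with the smallest p for RRM2, CDC45 and RRM1. RRM2, a subunit of ribonucleotide reductase, had 86.5, 468 and 104 CPM after siControl and 116, 427 and 121 CPM after siSRPX2-1. Of the 26 regulators of mitotic transcription 18 were higher and 2 lower against replicate 1 (median 0.44), and 13 higher and 2 lower against replicate 3 (median 0.26). The smallest p were those of E2F7, MYBL2 and TFDP1, and the 2 lower genes were in both comparisons the pocket protein gene RBL2 and the CDK inhibitor gene CDKN1B. MYBL2, the activating partner of FOXM1, had 77.7, 225 and 77.0 CPM after siControl and 88.5, 204 and 91.7 CPM after siSRPX2-1. The inhibitor CDKN1A (p21) had 164, 164 and 170.2 CPM after siControl and 144, 148 and 168 CPM after siSRPX2-1, and no replicate 2 library stood apart. CDKN1B (p27) had 103, 86.8 and 107.5 CPM after siControl and 107, 71.1 and 109 CPM after siSRPX2-1, lowest in both replicate 2 libraries. The 31 members with a CHR motif had a median change of 1.31 against replicate 1 and 1.16 against replicate 3, and the 9 members without one had 1.21 and 1.10. Those ranges overlapped almost wholly (0.13 to 1.94 and 0.23 to 1.77 against replicate 1).

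**Figure D4:**
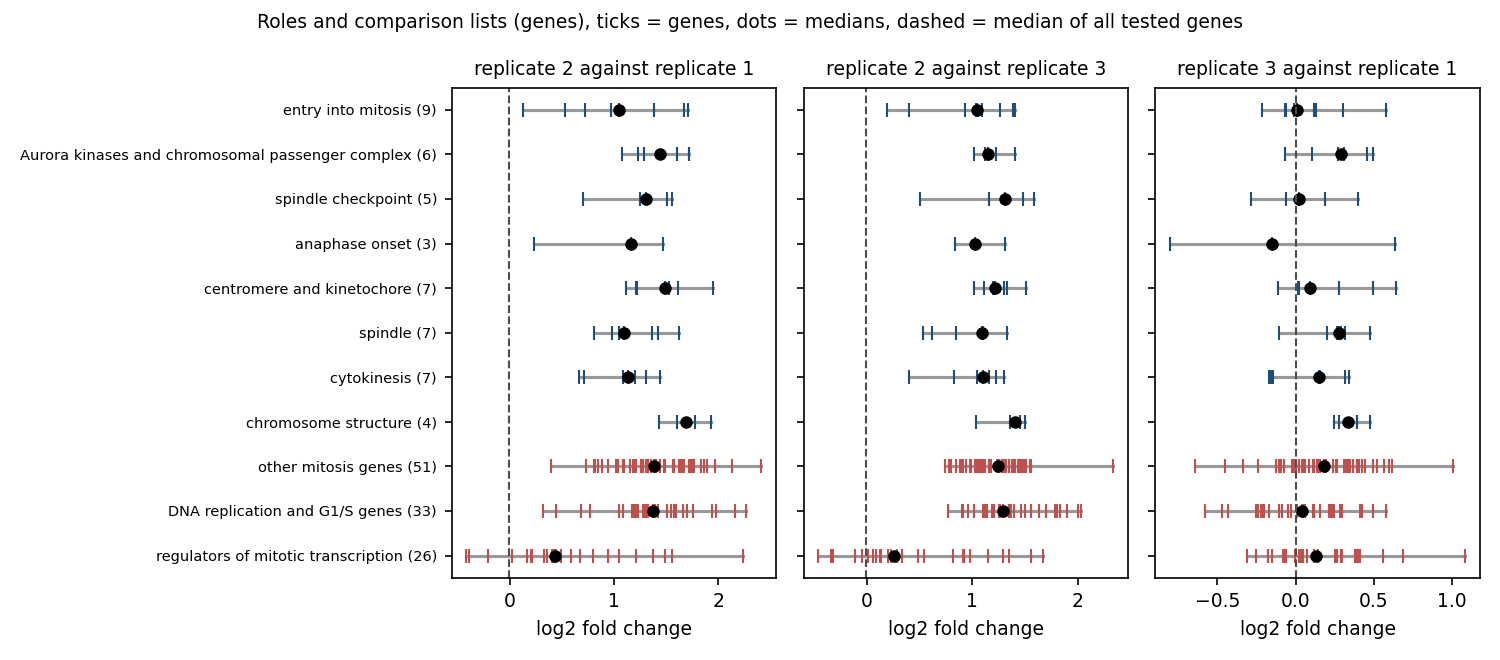
log2 fold changes (x axes) between replicate numbers for the 8 roles of the 48 genes (blue ticks) and 3 comparison lists (red ticks), with the number of genes in brackets. Each tick is 1 gene, dots are medians, grey lines span the range and the dashed line is the median of all tested genes. Medians of the roles lie between 1.05 and 1.69 against replicate 1, and that of the regulators at 0.44.

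The second comparison asked whether the 48 genes differed after siSRPX2-1. None of the 48 was called (edgeR, adjusted p = 0.999966 for each), and 0% of all genes were called (3 genes with DESeq2, none of them a member). At an unadjusted p under 0.05 there were also 0 of 48, against 0.496% of all genes. The log2 changes ran from -0.30 (PTTG1) to 0.10, with a median of -0.07 (all genes -0.01) and standard errors of 0.129 to 0.661. In 43 genes the fitted change was negative and in 5 positive, against 6932 negative and 6385 positive of all genes. With limma on FPKM the median of the members was -0.0011 (pseudocount 1) and 0.00041 (pseudocount 0.1). In 0 of 48 genes were the 3 siSRPX2-1 libraries all on 1 side of the 3 siControl libraries, against 3.24% of all genes. For 46 of the 48 no other outcome was possible, because both replicate 2 libraries, 1 of each siRNA, lay above the other 4. This count therefore says nothing about the siRNA. PLK1, for instance, had a mean of 107 ± 70.8 CPM (SD, n = 3) after siControl and 96.0 ± 52.6 CPM (SD, n = 3) after siSRPX2-1, and MKI67 had 532 ± 375 and 517 ± 303 CPM (SD, n = 3). The median rests on the balance of the replicate 2 libraries, as it was 0.53 without siControl replicate 2 and -0.57 without siSRPX2-1 replicate 2, with 0 of 48 called in either case.

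Because same-numbered libraries deviated together, the replicate number was also used as a block, which brought the standard errors of the 48 genes down to 0.0545 to 0.137. With the block 0 of 48 genes were called, where 0.0451% of all genes were called. The median log2 change was -0.02, with 33 genes negative and 15 positive, and all 48 lay between -0.26 and 0.14. At an unadjusted p under 0.05 there were 2 of 48, CDC25B (-0.24, SE 0.0935, edgeR unadjusted p = 0.0303) and CKS2 (-0.19, SE 0.0744, edgeR unadjusted p = 0.0356), against 9.21% of all genes. Both had an adjusted p of 0.522. Without the replicate 2 libraries again 0 of 48 were called, and the median was 0.04 (0.03 with the block).

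Within single pairs nearly all members lay on 1 side of 0 in pairs 2 and 3, but on opposite sides. In pair 1, 29 of 48 genes were lower in the siSRPX2-1 library, as were 49.9% of all genes, and the median difference in log2 CPM was -0.10. In pair 2, 48 of 48 were lower, against 52.8% of all genes, with a median of -0.18. In pair 3, 46 of 48 were higher, against 50.2% of all genes, with a median of 0.18. CDC25C and BUB3 were the 2 exceptions in pair 3. As a result 0 of 48 genes moved the same way in all 3 pairs, against 32.4% of all genes. Each pair holds 1 library of each siRNA, so a difference within a pair has no replicate, and whether the pairs differ from each other could not be tested. SRPX2 itself had 3.94 CPM after siControl and 1.93 CPM after siSRPX2-1 in pair 1, and 4.43 and 2.13 CPM in pair 2. In pair 3 it had 4.42 and 3.82 CPM, a smaller step. Whether the level of SRPX2 had a part in the differences between pairs was not tested.

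**Figure D5:**
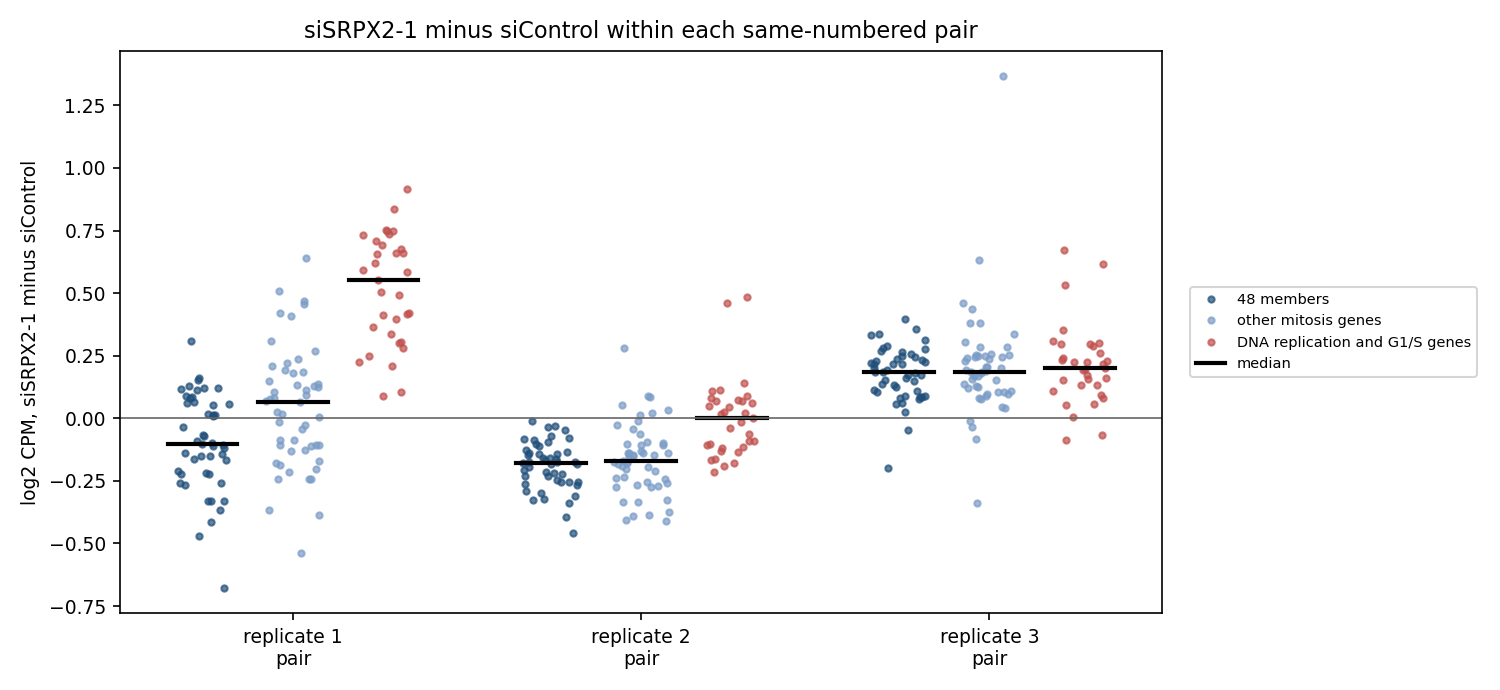
Difference in log2 CPM between the siSRPX2-1 and the siControl library (y axis) in each same-numbered pair, for the 48 members, 51 other mitosis genes and 33 genes of DNA replication and the G1/S transition. Each point is 1 gene and black bars are medians. The members' medians are -0.10, -0.18 and 0.18 in pairs 1, 2 and 3, and those of the replication genes 0.55, 0.00 and 0.20.

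Pair values follow for the 8 genes with the smallest p for siSRPX2-1 against siControl. They were picked by that p and do not stand for the whole set. For CKS2 the difference in log2 CPM was -0.26, -0.32 and 0.03 in pairs 1, 2 and 3. For CDC25B it was -0.33, -0.46 and 0.06. Both were lower in pairs 1 and 2 and nearly level in pair 3. PTTG1 had -0.68, -0.18 and 0.09, and pair 1 alone held most of its change. KIF20A had -0.47, -0.34 and 0.22, and AURKA had -0.41, -0.40 and 0.31. In these 2 genes pair 3 went against the other pairs. ECT2 had -0.26, -0.25 and 0.06 and RACGAP1 had -0.22, -0.29 and 0.14. CDC25C had 0.01, -0.26 and -0.20, the only one of the 8 that was lower in pair 3. CCNA2, which had the largest positive difference in pair 1, had 0.31, -0.23 and 0.33.

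Of the 51 other mitosis genes 44 were lower in pair 2 and 47 higher in pair 3, while in pair 1 22 were lower and 29 higher. Among the genes of DNA replication and the G1/S transition all 33 were higher in pair 1 (median 0.55), 17 were higher and 16 lower in pair 2 (median 0.00) and 31 were higher in pair 3 (median 0.20). Over all 6 libraries 32 of 33 were positive with a median of 0.16, and with the block 33 of 33 with a median of 0.23, and 0 of 33 were called in either fit. At an unadjusted p under 0.05 there were 0 of 33 without the block and 11 of 33 with it, all higher, against 9.21% of all genes. CCNE1, CCNE2 and UNG had the smallest p without the block, and RRM1 had the smallest with it. CCNE1 (cyclin E1) had 6.97, 7.99 and 3.96 CPM after siControl and 8.05, 10.99 and 6.31 CPM after siSRPX2-1. The differences between these lists and the members were not tested.

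Reads could be shared with neighbours in some members. Of the 48 genes, 5 overlap a tested gene on the same strand (CCNB2, CKS2, CENPA, PRC1 and TOP2A) and 7 overlap one on the other strand (CCNA2, FOXM1, NUSAP1, KIF4A, KIF20A, ANLN and NCAPG), and no source used here states whether counting used strand. The 11 pseudogene copies found by name had at most 55 reads in any library.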

How the data were processed

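RNA of 6 TPC1 libraries was sequenced on an Illumina platform. The authors deposited counts (raw) and FPKM for each gene, made with StringTie 2.1.6 and ballgown, and the submitters' notes also name DESeq2 and edgeR. For aligner, build and annotation the sources used here give nothing. All 48 members matched GENCODE 29 in chromosome and strand, 13 with equal ends and the rest within 11900 bases, so positions are given on GRCh38. Members and lists were chosen with earlier results of these data known.

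Counts were tested with edgeR 4.0.16 in R 4.3.3 (TMM, glmQLFit, glmQLFTest) after a filter at a mean FPKM of 0.5, with Benjamini-Hochberg adjustment. The scripts were tested on simulated counts. Values in every library are given for leading genes of each role, the 8 members of smallest p for the siRNA and for the replicate number, and the most and least abundant; up to 3 genes of smallest p for the replicate number and for the siRNA are named from each other list. CCNA2 (pair values), RBL2 and CDKN1B were named after their values were seen.

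The correlation of deviations from the siRNA means was 0.640, 0.822 and 0.705 between same-numbered libraries and at most 0.117 otherwise. Deviations within an siRNA cancel out, so positive values between same-numbered libraries lower the others, and the low values are partly built in. The numbers were taken as pairs, from the labels and the positive same-numbered values. No 2 libraries were repeats (chi-square per gene of 17.7 or more). The smallest value, 17.7, was between siControl and siSRPX2-1 replicate 3, against 67.4 for the replicate 1 pair and 53.5 for the replicate 2 pair. The 2 libraries of pair 3 were thus the most alike. The study calls the replicates biological repeats. Figures used matplotlib 3.10.9.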

Additional observations from a re-analysis of the deposited data

How the results depend on the processing

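In the comparison of siSRPX2-1 with siControl 0 of 48 mitosis genes were called under every alternative run: DESeq2 1.42.0, its size factors, no filter, a mean FPKM of at least 5, limma 3.58.1 on log2(FPKM + 1) or log2(FPKM + 0.1), the replicate block, each library left out and, chosen after the data were seen, scaling by library totals and replicates 1 and 3 alone. Over all genes DESeq2 called 3, the replicate block 6, and replicates 1 and 3 alone with the block 97. Leaving out single libraries moved the members' median from -0.57 to 0.53, and the changes of KIF20A (-0.48 to 0.10), ECT2 (-0.32 to 0.089), AURKA (-0.64 to 0.37), CDC25C (-0.57 to 0.30) and RACGAP1 (-0.58 to 0.38) turned their sign, the lowest without siSRPX2-1 replicate 2 and the highest without siControl replicate 2. Apart from the unadjusted calls of CDC25B and CKS2, pairing by the block changed no call among the members.

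For the replicate number, a mean FPKM of at least 5 left 4373 genes called, 3687 for replicate 2 against 1 and 3815 for replicate 2 against 3, since fewer genes were tested. The members' median for replicate 2 against 1 was 1.35 without a filter, 1.27 with FPKM of at least 5, 1.39 with limma on log2(FPKM + 0.1), 1.38 with totals alone, and 1.21 to 1.39 with 1 library left out. PTTG1 ran from -0.072 (without siSRPX2-1 replicate 1) to 0.56 (without siControl replicate 1). Replicate 3 against 1 was the least stable. Its calls among the members were 0 without a filter, 4 with either limma fit and 5 to 20 with 1 library left out. Over all genes they were 396, 1321 (pseudocount 1), 1193 (pseudocount 0.1) and 591 to 2902. Its median was 0.048 to 0.35. The cause was not tested. With 1 library left out, a number or siRNA with 1 library is assumed to vary like the others. The members had at least 414 reads in every library, and the counting error of a pair difference was at most 0.0963 on the log2 scale.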
